A study of Mus musculus with 5 samples.

Results

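A20, a mouse B cell line that its label assigns to the memory stage, was compared with AxJ, a mouse plasma cell line, across the 12422 probe sets that remained of 12488 after the 66 manufacturer's controls were left out. A probe set is a group of short probes on the array that reads 1 transcript. All 5 arrays of the study entered, 1 of A20 and 4 of AxJ. The AxJ arrays came from 4 stable transfectants: 1 with empty vector, 1 labelled as overexpressing hnRNP-H, and subclones B5 and D6, both labelled as overexpressing hnRNP-F. Hnrnph1, which encodes hnRNP-H, read 1056 on the array labelled hnRNP-H and 1487 on that of empty vector, so this probe set goes against the label; whether its probes match the transfected sequence was not tested. The arrays are named by their labels below. HnRNP-F and hnRNP-H are RNA-binding proteins that act in splicing and in the choice of polyadenylation site. The clones had been picked for high protein on western blots, and the design gave the A20 cells and the empty vector and hnRNP-H lines as controls for the hnRNP-F clones. Polyadenylated RNA was hybridised from cells in log-phase growth in IMDM with 5% FCS. The AxJ cultures also held G418, the drug that selects transfected cells, at 1 mg/ml, and the A20 label lists none, so that the drug, transfection and the line itself cannot be told apart. No label states whether cultures were repeated.

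B cells carry an antigen receptor, made of membrane immunoglobulin with Cd79a and Cd79b, and display peptides on MHC class II. A plasma cell has left that state: the repressor Blimp-1, encoded by Prdm1, silences much of the B cell programme, while Xbp1 and Irf4 drive the build-up of endoplasmic reticulum (ER), the compartment in which antibody is folded before secretion. The elongation factor ELL2, named in the study's title, favours the secreted form of the heavy chain transcript in plasma cells.

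Values are the deposited intensities, on a scale on which each array's trimmed mean was 150.1. Because A20 had 1 array, each gene is described by A20 against the AxJ array nearest to it, as a fold on the log2(intensity + 6.53) scale. On that scale a gene counts as higher or lower where A20 lay at least 2-fold outside all 4 AxJ arrays. Of the 12422 probe sets, 475 were higher (3.82%) and 517 lower (4.16%), and 5621 (45.25%) had A20 within the AxJ range. At 4-fold the counts were 126 higher (1.01%) and 106 lower (0.853%). With 1 probe set for each of 8251 genes, 372 genes were higher (4.51%) and 382 lower (4.63%). A second reading used limma, which fits all probe sets together and assumes that the lone A20 array varies like the AxJ arrays. Among the 9204 probe sets bright enough to enter, it called 341 higher (3.7%) and 402 lower (4.37%) at a Benjamini-Hochberg adjusted p below 0.05, 45.9% of them higher. With each array scaled to a common median it called 452 higher and 259 lower, 63.57% higher. A permutation of 1 array against 4 cannot give an exact p below 0.2. The plot of A20 against AxJ shows both groups along the whole range of brightness.

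**Figure D1:**
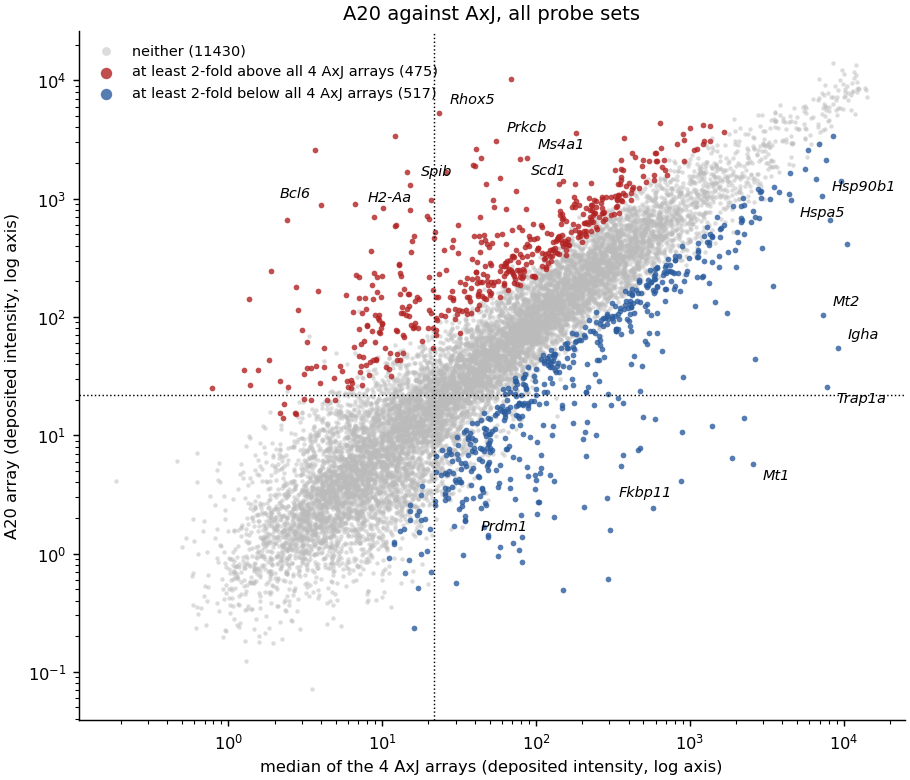
Each point is 1 of the 12422 probe sets, with the median of the 4 AxJ arrays on the horizontal log axis and A20 on the vertical log axis, both as deposited intensity. Red marks the 475 probe sets at least 2-fold above all 4 AxJ arrays, blue the 517 at least 2-fold below, and the dotted lines the intensity of 21.8 under which a value is called dim.

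The A20 array had a median intensity of 33.8 against 37.7 to 41.7 on the AxJ arrays, and the median difference of A20 from AxJ over all probe sets was -0.18 on the log2 scale, which moved to -0.03 when arrays were scaled to a common median. Over all probe sets A20 correlated with the AxJ arrays at 0.886 to 0.914, and the AxJ arrays with each other at 0.934 to 0.970. The 5' Gapdh control over the 3' one, which falls where RNA is degraded or labelling stops short, gave 0.382 for A20 and ran from 0.180 to 0.865 among the AxJ arrays. The AxJ B5 array stood apart in 1 respect. In 27 probe sets where A20 read at least 500 and lay 16-fold or more above the other 3 AxJ arrays, B5 exceeded those 3 in 23, with a median excess of 2.04% of the A20 level. For each other array, 21 probe sets met the same condition, and the median excess was -0.45% for empty vector, -0.73% for hnRNP-H and -0.69% for D6. In those comparisons B5 is 1 of the other 3 arrays and enters both the condition and the mean. Its higher values lower these medians, which are therefore not independent of the B5 value. Over all called probe sets B5 was the AxJ array nearest to A20 in 29.05% of the higher and 26.69% of the lower ones, close to the share of each other array (20.42% to 26.95%). Values without 1 array are given where they differ by over 1.5 times. Why B5 read higher was not tested. In the plot of that excess, the B5 points reach 10.7%.

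**Figure D2:**
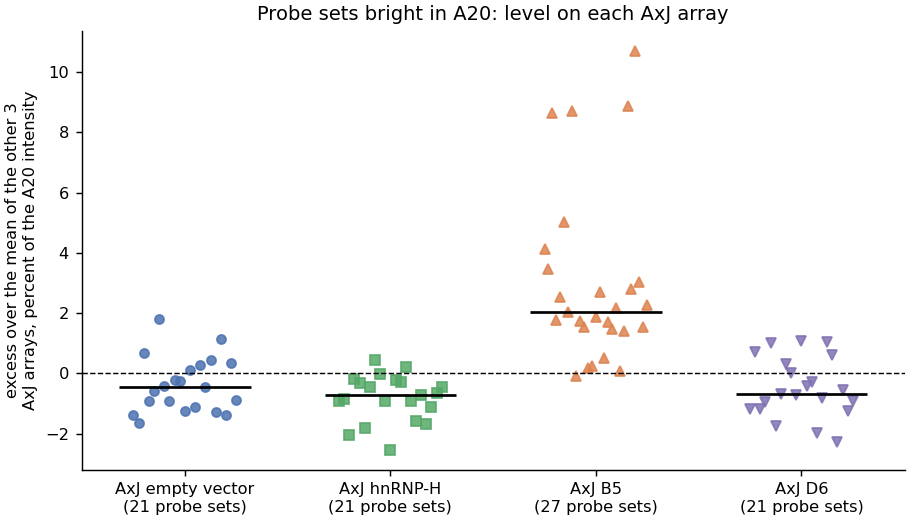
For each AxJ array, points are probe sets in which A20 read at least 500 and lay 16-fold or more above the other 3 AxJ arrays (27 for B5, 21 for each other array). The vertical axis is that array's intensity minus the mean of the other 3, as a percent of the A20 intensity, and bars are medians, 2.04% for B5 and below 0 for the rest. For the rest, the other 3 include B5, which lowers their excess.

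The defining markers separated the lines to different degrees. Ms4a1, which encodes the B cell antigen CD20, read 117, 56.9, 116 and 58.1 on the empty vector, hnRNP-H, B5 and D6 arrays, an order kept for all values that follow, and 2212 in A20. Prdm1 read 154, 93.7, 95.5 and 107 on the AxJ arrays and 2.14, under the dim level of 21.8, in A20. For both genes A20 lay outside the AxJ range, while over all probe sets 45.25% had A20 inside it. Other defining markers separated less: Cd79b read 423, 596, 478 and 762 against 974 in A20, and Xbp1 526, 1303, 1157 and 1061 against 483. The Xbp1 gap rested on the empty vector array, the lowest of the 4, and A20 lay 1.12 below the nearest of the other 3 on the log2 scale. Sdc1, the plasma cell antigen CD138, read 40.7, 44.8, 21.9 and 45.2 on AxJ and 26.2 in A20, so that A20 lay inside the AxJ range. Its second probe set read 21.7, 57.3, 37.3 and 98.5 against 2.55. Of the mature B cell receptors, Cr2 and Fcer2a read at most 10.4 and 7.22 on every array.

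Of 21 measured surface receptors and co-receptors of B cells, 9 were higher in A20 (42.86%, against 4.51% of all genes), none was lower, and limma called 6 higher, against 4.19% of all genes tested. Leaving out the hnRNP-H array made 1 of them lower. Cd22, an inhibitory co-receptor that binds sialic acid, read 8.41, 5.07, 13.1 and 8.597 on AxJ and 362 in A20, 18.8-fold above B5 (limma difference 4.61 ± 0.57 (SE), adjusted p = 0.000633). Cxcr5, the chemokine receptor that guides B cells into follicles, read 9.22, 7.37, 9.19 and 8.003 on AxJ and 186 in A20 (12.2-fold). For both genes the AxJ values lay under the dim level, so the pseudocount sets part of the fold. Ptprc, the CD45 phosphatase, read 82, 57.2, 34.8 and 42.8 against 288. Cd24a was bright in both lines, at 1811, 1159, 1262 and 1183 against 4231, a fold of 2.33. Cd79a read 8.89, 33.2, 62.2 and 23.5 on AxJ and 166 in A20, 2.51-fold above B5 and 4.35-fold above the nearest of the other 3, and missed limma's threshold (adjusted p = 0.0568). Cd37, Cd53, Cd81 and Cd83, tetraspanins and an activation antigen, lay less than 2-fold from the AxJ arrays or inside their range.

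Downstream of the receptor, 12 of 26 signalling genes were higher in A20 (46.15%, against 4.51% of all genes) and none lower, limma called 11 of them (against 4.19% of all genes tested), and the list's median difference was 1.19 on the log2 scale against -0.15 over all genes. Prkcb, the protein kinase C that links the receptor to NF-kB, read 49.5, 59.8, 122 and 49.1 on AxJ and 3074 in A20. That was 23.9-fold above B5 and 46.4-fold above the nearest of the other 3 arrays (limma difference 5.42 ± 0.47 (SE), adjusted p = 5.15e-05). Blk, a Src-family kinase of B cells, read 33.5, 24.1, 31.8 and 30.8 against 602 (15.2-fold, adjusted p = 0.000149 by limma). Both kinases were above the dim level on all 5 arrays. Itpr2, an ER calcium channel, read 14.8, 17.4, 6.32 and 18.5 against 488. Another of its probe sets read 5.45 to 9.22 on AxJ against 143.5. In its remaining ones, dim on every array, A20 read 6.36 and 6.51, inside the AxJ range. Nfatc1, a transcription factor activated by calcium, read 8.73, 3.75, 3.84 and 3.84 against 166. The adaptor Lat2 read 48.6, 45.6, 162 and 44.6 against 1327, 7.91-fold above B5 and 24.2-fold without it. The inhibitory phosphatases differed in the same direction: Ptpn6 (SHP-1) read 50.1, 56.7, 49.3 and 93.5 against 859, and Inpp5d (SHIP-1) 63.97, 81.3, 67.05 and 92.7 against 371. Ptpn6 in A20 was 8.66-fold above D6 and 13.7-fold above the nearest of the other 3. Was, the actin regulator mutated in Wiskott-Aldrich syndrome, read 16.3, 16.4, 27.5 and 27.6 against 519.

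Of 26 B cell transcription factors, 10 were higher in A20 (38.46%, against 4.51% of all genes) and none lower, and all 10 calls by limma were also higher. Spib, an Ets factor of mature B cells, read 16.6, 13.6, 20.7 and 11.7 on AxJ and 1297 in A20, 47.9-fold above B5 (limma difference 5.89 ± 0.45 (SE), adjusted p = 2.33e-05), although its second probe set read 10.6, 52.7, 31.3 and 47.0 against 61.5. Bcl6, the repressor that defines germinal centre B cells and opposes Prdm1, read 1.57, 6.46, 21.3 and 1.44 against 889.5, 32.2-fold above B5 and 69.0-fold above the nearest of the other 3. Ebf1, which specifies the B lineage, read 10.02, 8.45, 21.3 and 3.29 against 219, 8.104-fold above B5 and 13.6-fold without it. For these 3 factors all 4 AxJ values lay under the dim level. Pax5, the guardian of B cell identity, was intermediate at 34.5, 14.9, 56.3 and 48.8 against 213 (3.49-fold), and its second probe set read 11.9 to 17.5 on AxJ and 14.0 in A20. Irf8 read 28.9, 23.1, 23.4 and 15.1 against 229, Id2 2.14, 4.29, 9.305 and 9.39 against 227, Myb 54.3, 44.2, 41.5 and 70.2 against 392 and Mef2b 230.3, 412, 300.2 and 446 against 1791. Some other factors of the list lay close: Spi1 (PU.1) read 109.8, 125, 152 and 128 against 154, and Tcf3 (E2A) 125, 107, 142 and 124 against 137. Pou2af1, the coactivator OCA-B, read 602, 445, 421 and 362 against 1167, just under 2-fold.

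**Figure D3:**
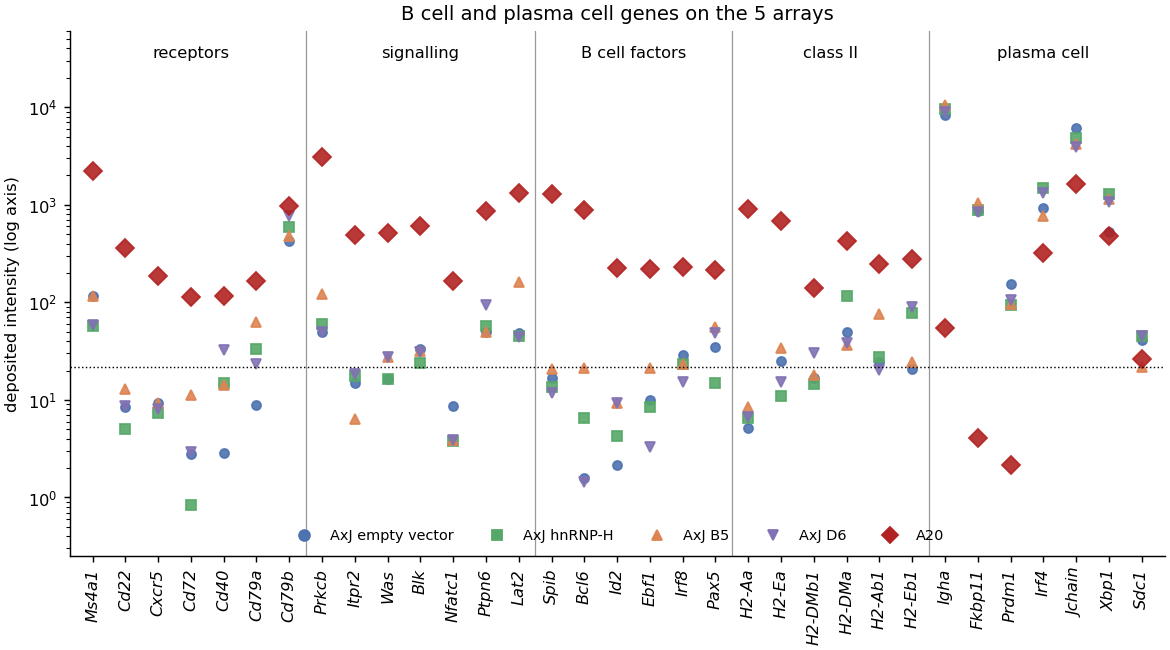
Deposited intensity on a log axis for genes grouped by role, with 1 point for each of the 5 arrays and the dim level of 21.8 as a dotted line. A20 (red diamonds) lies above all 4 AxJ arrays for every gene of the first 4 groups and below them in the plasma cell group, except for Sdc1, where it lies inside the AxJ range.

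The class II presentation genes were divided. Of 22, 8 were higher in A20 (36.36%, against 4.51% of all genes) and 3 lower (13.64%, against 4.63%), and limma called 7 and 3. The alpha and beta chains named here were higher. Of the genes for the peptide editors, H2-DMa, H2-DMb1 and H2-Ob were higher, whereas H2-DMb2 (50.5, 46.2, 9.97 and 44.7 against 41.0) lay inside the AxJ range and H2-Oa within 2-fold of it. The lysosomal proteins were mostly lower or within 2-fold, and the transcriptional master regulator Ciita read 70.5, 48.2, 44.5 and 51.2 on AxJ and 46.3 in A20, inside the AxJ range. H2-Aa, the I-A alpha chain, read 5.12, 6.58, 8.36 and 6.74 against 908, 61.4-fold above B5 (limma difference 6.12 ± 0.53 (SE)). That was the largest fold over the nearest AxJ array among genes higher in A20. All 4 AxJ values lay under the dim level, so the pseudocount sets part of the fold. The rank also depends on B5, without which Rhox5 was 153-fold and Tmsb4x 134-fold higher. H2-Ea, the I-E alpha chain, read 24.9, 10.99, 34.3 and 15.3 against 679 (16.8-fold). The beta chains were less far apart: H2-Ab1 read 24.7, 27.6, 76.8 and 20.1 against 248, 3.06-fold above B5 and 7.47-fold without it, and H2-Eb1 20.9, 77.7, 24.3 and 90.1 against 275. H2-DMa, a subunit of the peptide editor, read 49.8, 115, 36.2 and 38.3 against 428, 3.57-fold above the hnRNP-H array and 7.72-fold above the nearest of the other 3. The invariant chain Cd74, which is loaded with class II in the ER, differed little, at 1327, 2907, 2346 and 2844 against 3334. Among the proteases that cut antigen, Ctsh read 10.2, 31.5, 18.8 and 45.4 against 372, while Ctsb read 947, 1426, 1094 and 1338 against 222 and Ctsz 1037, 1160, 1436 and 1098 against 324. The 3 further probe sets of Ctsb were dim on nearly every array, with no value above 22.2.

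The Y box, bound by the factor NF-Y, is 1 of the elements through which class II promoters are switched on. Its letters CTGATTGG, searched on both strands of the 250 bases before the gene start, were found in 4.07% of 27025 RefSeq promoters (GRCm38.p6). Of the 15 class II list genes with a promoter sequence, 3 held it, 2 of the 5 higher genes and 1 of the 8 that were neither, H2-Oa (21.4, 13.8, 43.6 and 42.5 against 73.7). The 3 are shown because the element stands at a like distance from the start in genes that did and did not reach 2-fold. For H2-Oa, A20 still lay above every AxJ array. Capitals mark the Y box. The coordinates are chr17:34287847-34287894 (minus strand) for H2-Aa, chr17:34305785-34305832 (plus strand) for H2-Eb1 and chr17:34092313-34092360 (plus strand) for H2-Oa.
H2-Aa: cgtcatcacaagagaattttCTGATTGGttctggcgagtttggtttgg
H2-Eb1: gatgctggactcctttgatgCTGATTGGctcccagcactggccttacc
H2-Oa: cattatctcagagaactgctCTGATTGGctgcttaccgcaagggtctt
The box began 51, 62 and 46 bases before the start. A match is a description of the sequence and was not tested as a binding site.

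Of 14 class I genes, 2 were higher (14.29%, against 4.51% of all genes) and 1 lower, and the heavy chains H2-K1 (4929, 4311, 5004 and 4252 against 2899) and H2-D1 (7022, 5878, 6250 and 5490 against 3452) and the light chain B2m (4477, 3672, 3310 and 2695 against 1843) had A20 below all AxJ arrays by less than 2-fold. The higher genes were immunoproteasome subunits, the interferon-inducible catalytic subunits that favour peptides fit for class I. Psmb8 read 1121, 744, 823 and 835 against 2878 and Psmb10 239, 302, 447 and 376 against 1321, with Psmb9 at 377, 463, 416 and 563 against 1081, just under 2-fold. Of 37 proteasome genes, 4 were higher (10.81%, against 4.51% of all genes) and 1 lower; beside those 2 subunits the higher ones were Psmc3 at 317, 381, 456 and 389.5 against 1269 and Psmd13 at 104, 318, 303 and 310.1 against 1031. Psmc3 was higher in all of its 3 probe sets. The limma call of Psmd13 was lost without hnRNP-H or B5.

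Immunoglobulin probe sets were among the farthest apart. Igha, the alpha heavy chain, read 8345, 9534, 10650 and 8922 on AxJ and 55.1 in A20, 135-fold below the nearest array (limma difference -7.24 ± 0.33 (SE), adjusted p = 6.17e-07). Its second probe set read 140, 154, 202 and 141 against 17.0. A probe set for Ighm, the mu chain, read 756, 2769, 1062 and 2711 against 6.48, and every other probe set assigned to Ighm read at most 121 on any array. Jchain, which joins IgA and IgM into polymers, read 6085, 4830, 4193 and 3901 against 1636. For light chains the files list a lambda probe set under the names Iglc1 and Iglv1 together, which read 19.02-fold lower in A20 than on the nearest AxJ array, and a kappa one under several names, which read 40.1-fold higher than B5. Each is listed for several genes, so neither is assigned to 1 of them.

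Of 21 plasma cell regulators and markers, 9 were lower in A20 (42.86%, against 4.63% of all genes) and none higher, with a median difference of -1.32. Against 4.76% of all genes tested, limma called 8 lower and 1 higher, Zbtb20. Without the empty vector array 1 gene of the list was 2-fold higher. Beside Prdm1 (11.6-fold lower, adjusted p = 0.000338 by limma), Irf4 read 933, 1500, 768 and 1308 on AxJ and 322 in A20. The limma call of Irf4 was lost without the hnRNP-H array (adjusted p = 0.0542), and that of Jchain without hnRNP-H (0.0645) or D6 (0.0502). Spn, the sialomucin CD43, read 286, 925, 417.9 and 741 against 2.43, 32.7-fold lower. Cd28, which supports plasma cell survival, read 63.8, 51.5, 19.3 and 45.7 against 1.43, 3.25-fold below B5 and 6.56-fold below the nearest of the other 3, and its limma call was lost without hnRNP-H or D6. Tnfrsf17, the survival receptor BCMA, read 58.03, 62.7, 43.1 and 53.6 against 17.4 and missed limma's threshold (adjusted p = 0.0944). Ell2 read 3865, 2096, 1942 and 2068 on AxJ and 993 in A20, 1.95-fold below the nearest array, just short of 2-fold, with an adjusted p of 0.0906 by limma. A second Ell2 probe set read 69.3, 66.7, 79.7 and 48.0 against 17.4, and its other one 774, 297, 138 and 232 against 130, so that A20 was the lowest array in all 3. Hnrnph1 read 725 and 970.0 on B5 and D6 and 1477 in A20, inside the AxJ range.

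The folding machinery of the ER was the list with the largest share of lower genes. Of 32 chaperones and folding factors, 14 were lower in A20 (43.75%, against 4.63% of all genes), none higher, and limma called 13 lower. The summed intensity of the list was 11280 in A20 and 30070 to 35100 on the AxJ arrays. Fkbp11, a prolyl isomerase of secretory tissues that also stands in the plasma cell list, read 856, 884, 1054 and 838 on AxJ and 4.103 in A20, 79.4-fold lower (limma difference -6.42 ± 0.31 (SE), adjusted p = 6.68e-07). The main chaperones were still bright in A20. Hspa5 (BiP), which holds unpaired heavy chains, read 4602, 4679, 4458 and 3813 against 966, and Hsp90b1 (GRP94) 10970, 6993, 7551 and 5838 against 1047. These were folds of 3.92 and 5.55, with limma adjusted p of 0.00223 and 0.00139. Among the disulfide isomerases Pdia4 read 465, 403, 553 and 585 against 62.5, Pdia5 128, 83.1, 89.3 and 110.0 against 4.16 and Pdia6 424, 915, 398 and 734 against 169. Pdia3, P4hb and Canx, of the same pathways, lay inside the AxJ range or within 2-fold of it. Sel1l, a subunit of the ligase that clears misfolded ER proteins, read 398, 637, 409.7 and 566 against 38.3, and 438, 348, 205 and 262 against 18.0 in its other probe set. Creld2, an ER stress target, read 1524, 1447, 2221 and 1567 against 265. In the plot of the list, Fkbp11 lies far below the other genes.

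**Figure D4:**
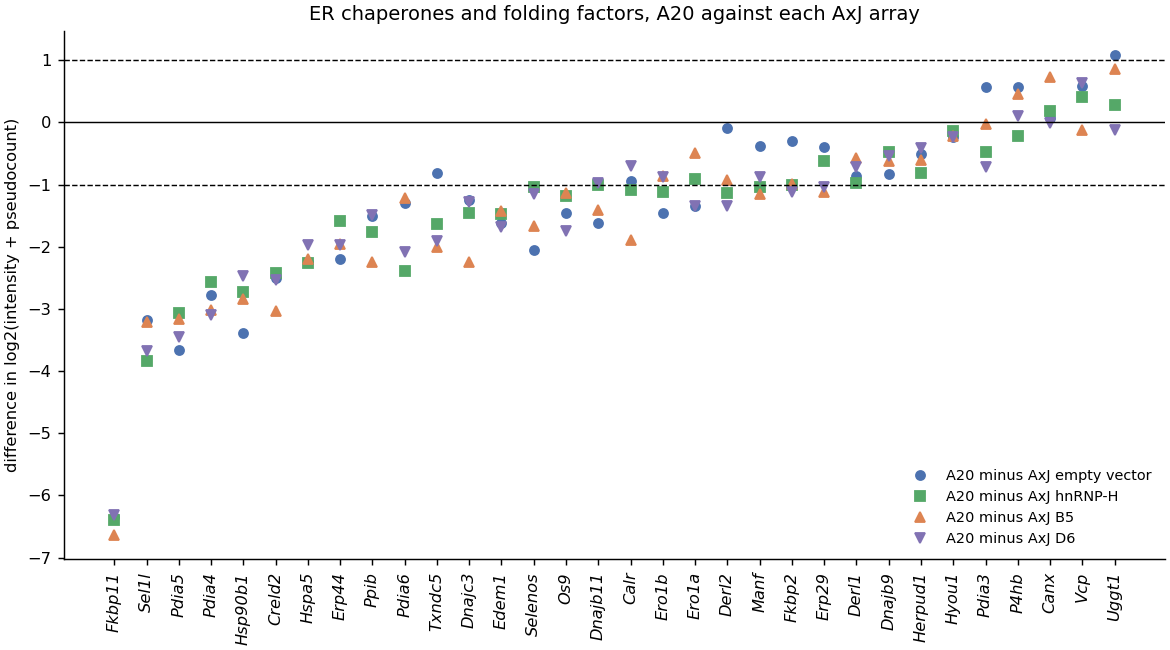
For each of the 32 ER chaperones and folding factors, ordered by the mean difference, 4 points give A20 minus each AxJ array in log2(intensity + 6.53), and dashed lines mark 2-fold. In 14 genes all 4 points lie below the lower line, and in none above the upper.

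Several of these genes share the ER stress element, the site CCAAT, 9 further bases and CCACG, through which NF-Y, ATF6 and XBP1 act when unfolded proteins build up. Written as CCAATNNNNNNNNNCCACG and searched on both strands of the 250 bases before the start, it was present in 33 of 27025 promoters (0.122%) and in 8 of the 28 listed genes with a promoter sequence. These were 5 of the 14 lower genes (Hspa5, Hsp90b1, Pdia6, Dnajc3 and Creld2) and 3 of the 14 that were neither (Calr, Canx and Ero1b). Of these, 3 lower genes and Canx are shown, since the same letters stand in genes with unlike differences; capitals mark the fixed letters, all on the printed strand. They lie at chr2:34772005-34772063 (plus strand, Hspa5), chr10:86705618-86705676 (minus strand, Hsp90b1), chr14:118937807-118937865 (plus strand, Dnajc3) and chr11:50325780-50325838 (minus strand, Canx) of GRCm38.p6.
Hspa5: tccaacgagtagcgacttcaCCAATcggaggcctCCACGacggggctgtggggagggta
Hsp90b1: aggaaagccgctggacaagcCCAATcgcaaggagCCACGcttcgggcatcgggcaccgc
Dnajc3: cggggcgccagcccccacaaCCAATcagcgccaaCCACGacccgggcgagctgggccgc
Canx: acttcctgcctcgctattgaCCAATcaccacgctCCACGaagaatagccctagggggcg
Dnajc3, a co-chaperone of BiP, read 409.9, 475, 822 and 418.1 on AxJ and 169 in A20. Canx, the lectin that folds glycoproteins, read 176, 162, 109 and 186 and 185, no lower than AxJ.

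Of 49 genes for translocation into the ER, glycosylation and vesicle transport, 10 were lower (20.41%, against 4.63% of all genes), none was higher and 39 were neither; limma called 12 lower, and the median difference was -0.77. The count of lower genes was 16 without the empty vector array. At the translocon, Ssr1 read 531, 786, 817 and 817 against 183 and Sec63 42.8, 92.2, 27.4 and 69.7 against 3.67. The limma call of Sec63 was lost without hnRNP-H or D6. In the oligosaccharyltransferase, which adds the glycan to the growing chain, Ddost read 1030, 922, 947 and 1070 against 318, and Dad1 2028, 3302, 2802 and 2820 against 685. Both were lower by nearly the same fold, 2.86 and 2.94. Of the coat proteins, Copa read 673, 834, 680.2 and 769 against 309 and Sec31a 359, 459.8, 287 and 348 against 112. Prdx4, the ER peroxiredoxin, read 2276, 1837, 3254 and 1850 against 433.

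**Figure D5:**
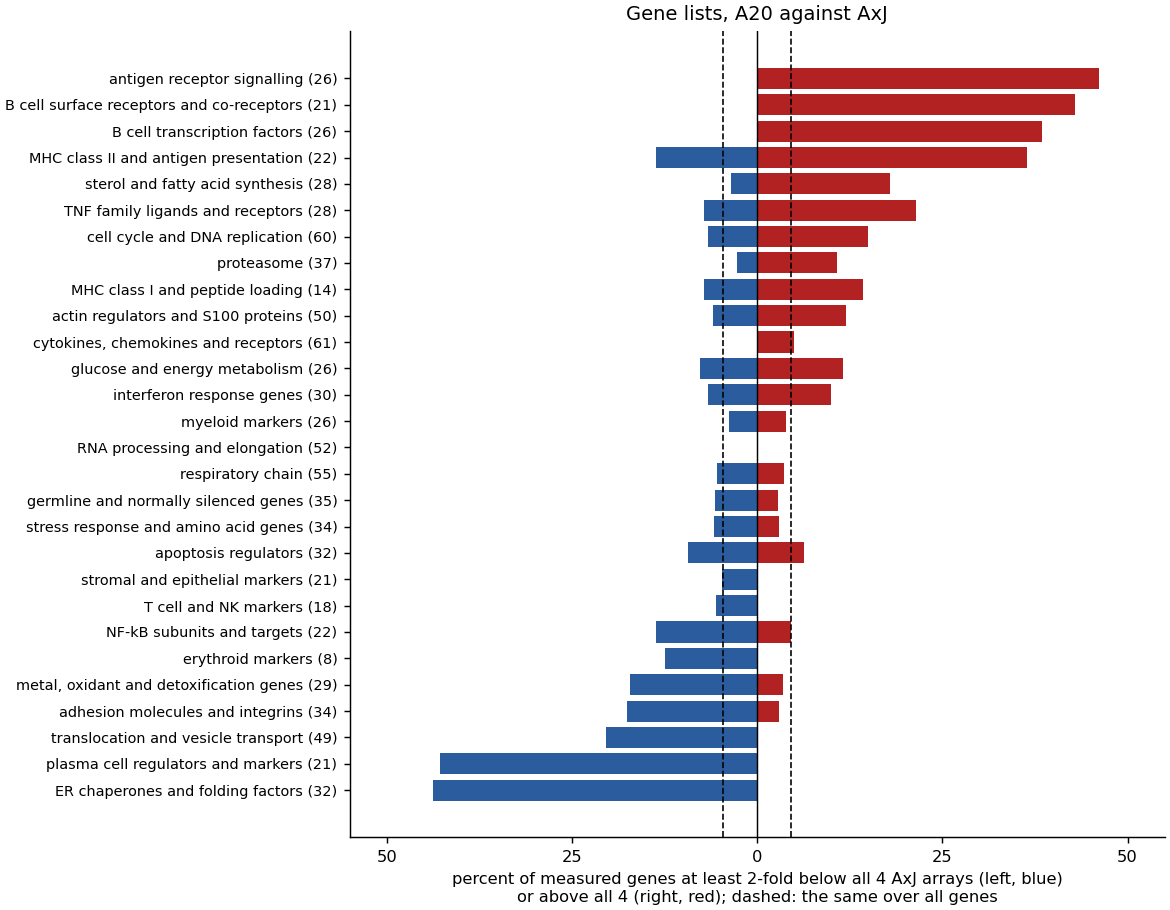
For each gene list, with the number of measured genes in brackets, the percent of genes at least 2-fold above all 4 AxJ arrays (red, right) and below all 4 (blue, left), both from 0. Dashed lines give the same over all 8251 genes, 4.51% higher and 4.63% lower; the 3 B cell lists reach farthest to the right and the ER and plasma cell lists to the left.

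The genes farthest apart in either direction lay partly outside these programmes. Trap1a, a tumour antigen otherwise expressed in the germ line and placenta, read 12070, 7507, 8074 and 6841 on AxJ and 25.7 in A20, the largest fold of all (212-fold lower, limma adjusted p = 6.17e-07). Rhox5, a homeobox gene of the reproductive tract, was its opposite at 9.79, 28.1, 203 and 18.6 against 5289, 25.3-fold above B5 and 153-fold above the nearest of the other 3. Csn3, the milk protein kappa casein, read 3243, 3831, 2029 and 2036 against 44.4. Of 35 germline and normally silenced genes these 3 were the only ones at least 2-fold apart. That was 1 higher (2.86%, against 4.51% of all genes) and 2 lower (5.71%, against 4.63%), shares near those of all genes. The metallothioneins, which bind zinc and copper, were both low in A20: Mt1 read 2115, 2727, 3916 and 2455 against 5.697 and Mt2 7009, 7724, 8890 and 6192 against 105, folds of 174 and 55.8 with limma adjusted p of 6.17e-07 and 2.81e-06. Gsto1, a glutathione transferase, read 970.3, 972, 813 and 848 against 30.9. Hmox1, haem oxygenase, was higher in A20 at 439, 841, 1149 and 370.3 against 4369. Further genes at the low end in A20 were Cox6a2, the muscle form of a cytochrome oxidase subunit (1480, 859, 1387 and 1401 against 12.04, 46.6-fold, and 75.1-fold without hnRNP-H), Tsc22d1 (319, 244, 267 and 368 against 0.606), Tent5c, a poly(A) polymerase of plasma cells (565, 439, 488 and 432 against 7.56), and the linker histone H1f2 (498, 448, 572 and 401 against 7.87). Basp1 read 4418, 3426, 3568 and 3316 against 183, and its second probe set was also lower. At the high end, Car2, a carbonic anhydrase, read 2.63, 9.99, 8.44 and 9.15 against 707, Dap 4.83, 10.1, 22.6 and 10.02 against 834, Mid1ip1 7.897, 11.1, 23.9 and 19.1 against 799.5 and Lmo7 12.3, 2.85, 41.1 and 29.1 against 974. The second Mid1ip1 probe set read 43.1, 7.63, 12.4 and 30.3 against 34.0, inside the AxJ range. Clca1 read 41.02, 40.5, 79.6 and 35.6 against 2622, but its second probe set read 23, 19.1, 8.93 and 34.9 against 12.7. Dap was 28.9-fold and Clca1 30.5-fold above B5, and without B5 they were 50.5-fold and 55.3-fold higher. St6gal1, which adds the sialic acid that Cd22 binds, read 60.3, 37.2, 56.1 and 67.1 against 1511 (20.6-fold), and its dimmer probe set 7.2 to 25.3 against 30.0.

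Among genes above the dim level on all 5 arrays, several more lay at the ends. Some of these were only just above it in A20, such as Syngr1 (22.2) and H3c14 (23.5). Napsa, an aspartic protease, read 116, 122, 305 and 244 on AxJ and 3568 in A20, 11.5-fold higher. Dek, a chromatin protein, read 102, 77.8, 69.5 and 54.4 against 1157, the potassium channel gene Kcnk2 42.02, 47.03, 44.6 and 32.6 against 707, and Fam107b 76.03, 63.5, 63.7 and 60.6 against 817. At the low end the replication-dependent histone gene H3c14 read 996, 346, 547 and 408 against 23.5, the synaptic vesicle gene Syngr1 233, 307, 371 and 278 against 22.2, Tmem223 499, 556, 1258 and 660.3 against 73.5, and Tmbim1 706, 846, 558 and 622 against 51.8, with its second probe set inside the AxJ range. Sgip1 varied widely among the AxJ arrays, at 1332, 4998, 774 and 2173 against 107, 6.87-fold below B5 and 11.8-fold without it. Other genes had nearly equal AxJ values. Rad1, of the clamp that senses DNA damage, read 326, 336, 314 and 333 on AxJ (mean 327 ± 9.93 (SD, n = 4)) and 75.4 in A20, and Myl12b, a myosin light chain, 3298, 3533, 3377 and 3213 (mean 3355 ± 136 (SD, n = 4)) against 994. Rassf5, a Ras effector of lymphocytes, read 94.01, 90.1, 100.2 and 92.7 against 293, and its limma call was lost without hnRNP-H. Zwint, a kinetochore protein, read 2166, 2345, 2196 and 2252 against 1015, and Pimreg 42.8, 42.2, 38.6 and 43.9 against 126. Foxk2 read 117, 107, 117 and 118 against 257, but in its dimmer probe set A20 was lowest (14.4, 5.85, 11.8 and 26.4 against 4.9). These last 3 were 2.12-fold to 2.63-fold apart; Foxk2 missed limma's threshold (adjusted p = 0.0628), and the limma calls of Zwint and Pimreg were lost without hnRNP-H, B5 or D6.

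Of 34 stress response and amino acid genes, 1 was higher (2.94%, against 4.51% of all genes) and 2 lower (5.88%, against 4.63%), shares near those of all genes. Mthfd2, of mitochondrial one-carbon metabolism, read 684, 570.1, 462 and 512 against 2073, and its dimmer probe set 5.56 to 20.1 against 2.37. Slc3a2, the heavy chain of amino acid transporters, read 1989, 2956, 3331 and 2367 against 697, and Ddit4, an inhibitor of mTORC1, 488, 309, 410.0 and 250.3 against 71.6. Of 29 metal, oxidant and detoxification genes, 1 was higher and 5 lower (17.24%, against 4.63% of all genes), the metallothioneins, Gsto1, Prdx4 and the mitochondrial Sod2 (546, 309.6, 416 and 336 against 126). The limma call of Sod2 was lost without B5. In sugar metabolism, 3 of 26 genes were higher (11.54%, against 4.51% of all genes) and 2 lower (7.69%, against 4.63%). Tkt and Taldo1, both enzymes of the pentose phosphate pathway, read 231, 469, 749 and 820.3 against 2091 and 227, 265, 299 and 299 against 677, and the muscle enolase Eno3 432, 457, 504 and 677 against 159. Tkt missed limma's threshold (adjusted p = 0.0505), and the call of Taldo1 was lost without hnRNP-H or D6.

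Of 28 lipid synthesis genes, 5 were higher (17.86%, against 4.51% of all genes), 1, Sqle, was lower and 22 were neither. Sqle was 2.02-fold lower, and under 2-fold with median scaling. Its limma call was lost without hnRNP-H or D6. Scd1, which desaturates fatty acids, read 78.7, 77.8, 98.5 and 42.02 against 2169 (20.7-fold, limma adjusted p = 6.35e-05), and a second probe set read 16.8, 10.96, 50.2 and 12.2 against 1697. Its remaining probe set was dimmer and read 24.3, 33.6, 17.8 and 10.2 against 15.3, inside the AxJ range. Srebf1, the factor that drives fatty acid synthesis, read 290.1, 269.6, 321 and 276 against 1027, and Hmgcs1, an early enzyme of cholesterol synthesis, 292, 248, 164 and 350.5 against 999. The malic enzyme Me1, a source of NADPH for the same pathway, was lower at 124, 88.8, 137 and 145 against 2.06.

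In the TNF family, 6 of 28 genes were higher (21.43%, against 4.51% of all genes) and 2 lower (7.14%, against 4.63%). Ltb, the lymphotoxin subunit that anchors the ligand to the membrane, read 33.8, 33.7, 133 and 43.8 on AxJ and 1911 in A20, 13.7-fold above B5 and 38.1-fold above the nearest of the other 3. Tnf read 6.35, 10.2, 35.6 and 7.53 against 238, 5.798-fold above B5 and 14.5-fold without it. Among the other ligands, Tnfsf9 (4-1BB ligand) read 7.68, 16.1, 23.4 and 9.77 against 275 and Cd70 46.8, 38.03, 24.1 and 74.4 against 482. Cd70 was 6.04-fold above D6 and 9.18-fold above the nearest of the other 3. The receptor Cd40, through which T cells help B cells, read 2.84, 15.1, 14.1 and 32.3 against 117, 3.18-fold above D6 and 5.72-fold without it, and missed limma's threshold (adjusted p = 0.0505). NF-kB genes gave 1 higher (4.55%, against 4.51% of all genes) and 3 lower (13.64%, against 4.63%) of 22. The higher one, Bcl3, read 120.0, 65.1, 58.2 and 61.8 against 414 (3.33-fold, and 5.87-fold without empty vector). Among the lower, Gadd45b read 488, 176, 688 and 341 against 40.2 (3.91-fold, and 7.44-fold without hnRNP-H). The second Gadd45b probe set read 123, 109, 194 and 131 against 62.0, a fold of 1.68.

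The cytoskeletal list gave 6 higher (12%, against 4.51% of all genes) and 3 lower (6%, against 4.63%) of 50; the lower count was 6 without the hnRNP-H array. The folds of the actin-sequestering thymosins depended strongly on B5: Tmsb4x read 5.66, 18.7, 307 and 2.36 against 3364, 10.7-fold above B5 and 134-fold above the nearest of the other 3. Tmsb10 read 52.01, 28.5, 238 and 25.04 against 1901, 7.79-fold and 32.6-fold. Coro1a, an actin-binding protein of leukocytes, was far from every AxJ array, at 95.2, 139, 162 and 166 against 1402 (8.18-fold, limma adjusted p = 0.000345). The membrane linkers parted: Msn (moesin) read 172, 310.4, 187 and 252 against 1017, and Rdx (radixin) 328, 206, 113 and 207 against 10.6, 6.98-fold below B5 and 12.5-fold without it. Of 34 adhesion molecules and integrins, 1 was higher, the laminin receptor subunit Itga6 (8.97, 1.32, 5.51 and 7.33 against 109.7), and 6 were lower (17.65%, against 4.63% of all genes). Beside Spn these were Selplg, the selectin ligand (396, 469.8, 388 and 486 against 108), Itgae (66.5, 59.7, 49.8 and 57.8 against 1.13), Icam1 (96.1, 152, 71.9 and 139 against 23.04), Cd44 (39.05, 63.4, 35.7 and 53.1 against 1.67) and Epcam (57.2, 43.7, 45.3 and 45.1 against 3.28). The limma call of Icam1 was lost without hnRNP-H (adjusted p = 0.0549). The further probe sets of Cd44 and Itgae were dim on every array. In them A20 lay 1.03-fold (Cd44) and 1.04-fold (Itgae) below the nearest AxJ array. The count of higher adhesion genes was 2 without empty vector, hnRNP-H or B5.

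Of 60 cell cycle and replication genes, 9 were higher (15%, against 4.51% of all genes) and 4 lower (6.67%, against 4.63%), and limma called 8 and 3. The replicative helicase subunits Mcm2 (249, 413, 340.4 and 366 against 1336), Mcm5 (499, 897, 932 and 1073 against 3106) and Mcm7 (239, 525, 342 and 491 against 1122) were among the higher. So were the polymerase subunits Pola1 (107, 105, 58.5 and 76.9 against 455) and Pold1 (176, 226, 226 and 314 against 1349), Pold1 in 1 of its 2 probe sets. The D-type cyclins were opposed, with Ccnd3 at 136, 229, 312 and 311 against 1028 and Ccnd2 at 22.5, 40.1, 55.2 and 47.8 against 2.42, 3.25-fold below empty vector and 5.21-fold without it. The limma call of Ccnd2 was lost without hnRNP-H, B5 or D6. Myc, which drives growth and is activated in many plasmacytomas, read 1499, 1588, 1179 and 1054 against 196 (5.25-fold lower, limma adjusted p = 0.000669). The cyclin kinase inhibitor Cdkn2b read 286, 201, 279.9 and 232 against 28.9. Of 32 apoptosis regulators, 2 were higher (6.25%, against 4.51% of all genes) and 3 lower (9.38%, against 4.63%). The higher ones were Dap and Gadd45a, and Gadd45a read 18.9, 1.47, 13.1 and 5.31 against 163. Among the lower, the BH3-only gene Bik read 289, 412, 302 and 492 against 5.52 (24.5-fold lower) and Pdcd4 562, 443, 157 and 289.6 against 18.8, 6.45-fold below B5 and 11.7-fold without it.

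The further lists given here mostly had shares near or below those of all genes. Of 52 RNA processing and elongation genes none was 2-fold apart in either direction, and the 2 with the largest differences were Ell2 and Pabpn1 (196, 624, 751 and 642 against 1339). Without B5 the list gave 2 higher and 1 lower, Ell2, which lay 1.05 below the nearest array on the log2 scale, and without empty vector 1 higher. With median scaling it gave 3 higher. Of 61 cytokines, chemokines and their receptors 3 were higher (4.92%, against 4.51% of all genes) and none lower, and leaving out the hnRNP-H array made 5 lower. Markers of other cell types were also read: the summed intensity of 18 T cell and NK markers was 276.6 in A20 and 290.7 to 478 on AxJ, that of 26 myeloid markers 606 against 701 to 893, that of 8 erythroid markers 449 against 816 to 1177 and that of 21 stromal and epithelial markers 626 against 831 to 1036. In A20, 4, 7, 5 and 5 of these markers were above the dim level, and on at least 1 AxJ array 7, 19, 6 and 13. Most of the erythroid sum was Tfrc, the transferrin receptor, which dividing cells of many types use to take up iron. It read 895, 660.0, 778 and 622 on AxJ and 243 in A20, 2.52-fold lower (limma adjusted p = 0.0143), while its second probe set read 14.3, 55.96, 22.9 and 20.5 against 7.24. In each of the 4 lists 1 gene was lower, Cd28, Elane, Tfrc and Epcam in turn (5.56%, 3.85%, 12.5% and 4.76%, against 4.63% of all genes). The myeloid marker Adgre1 was higher (3.85%, against 4.51%), at 3.3, 2.59, 4.56 and 5.25 against 27.6, close to the dim level. Its other probe set read 11.1, 3.78, 2.1 and 7.94 against 4.34, inside the AxJ range. With the pseudocount at the 40th percentile the Adgre1 difference fell to 0.87 on the log2 scale, under 2-fold. The sums were lower in A20 for all 4 lists, and what share of them is background was not tested.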

How the data were processed

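Expression was measured on Affymetrix mouse arrays, 1 for A20 and 1 for each of 4 AxJ transfectants. The authors deposited 1 linear intensity per probe set and array; for these values the software is not given in the sources used here. Each array's mean without the 2% of values at either end was 150.1. No detection calls or probe-level values were used. The number of arrays limits the precision. The main reading kept the deposited scale, on which the arrays' trimmed means were already alike. Quantile normalisation and median scaling were tried as alternatives. Symbols came from the platform annotation of 2016, updated by gene number to RefSeq (GRCm38.p6): 10855 of 12488 probe sets had 1 symbol, 396 several and 1237 none. Values were taken as log2(intensity + 6.53), the 20th percentile of all values, and 21.8, the 40th percentile, was the dim level. Each gene was read from its probe set with the highest mean.

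The smallest of the 4 differences of A20 from AxJ was reported. The mean difference was also tested in limma (version 3.58.1 under R 4.3.3, with lmFit and a trended eBayes) over the 9204 probe sets whose highest value exceeded 21.8, with 3 residual degrees of freedom; the 4 AxJ derivatives were taken as 1 line, so p-values measure the spread between these arrays. The fit was tested on simulated data. Named genes were the 12 highest and 12 lowest over all genes and over those above 21.8 on all 5 arrays, the 5 farthest in each direction per list, the defining markers, and 6 with the least AxJ spread. Other list members named were chosen after their values were seen, and the members and lists were chosen with earlier results of these data known. The alternatives tried were other scalings, pseudocounts, filters and spread models, other choices of AxJ arrays, and other probe sets per gene.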

Additional observations from a re-analysis of the deposited data

Results flagged for a closer look

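In 5 of 50 named genes the highest or lowest AxJ array was separated from the other 3 by a share of the range above Dixon's critical value, which chance passes in about 1 of 20 groups. The gap was 0.833 of the range for Car2, low in empty vector, 0.832 for Clca1, high in B5, and 0.881 for Cox6a2, low in hnRNP-H. It was 0.889 for Ell2, high in empty vector, and 0.847 for Sdc1, low in B5. The A20 value lay far outside the AxJ range for Car2, Clca1 and Cox6a2, below it for Ell2 and inside it for Sdc1.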

How the results depend on the processing

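No paired analysis was possible because the labels give no replicate numbers shared between groups and A20 has 1 array. In no alternative did a named result turn its direction. Counts of limma calls depended on the AxJ arrays used. They ran from 223 to 568 higher and from 230 to 585 lower when 1 AxJ array was left out, highest without empty vector and lowest without hnRNP-H. Against hnRNP-H and D6 alone, limma called 751 higher and 820 lower, and 745 and 901 probe sets were at least 2-fold apart; against empty vector and B5 alone it called 71 and 75, and 989 were at least 2-fold lower. Without the intensity trend the calls were 179 higher and 173 lower, without the filter on low values 244 lower, and with median scaling 259 lower. With the pseudocount at the 40th percentile 315 probe sets were at least 2-fold lower. Among the AxJ arrays, hnRNP-H and D6 had the higher ratios of 5' to 3' Gapdh (0.865 and 0.678). Empty vector and B5 had the lower ones (0.211 and 0.180). The cause was not tested where arrays were left out. Of 133 named limma calls, none was lost without empty vector, 20 without hnRNP-H, 13 without B5 and 17 without D6, but 68 were lost against empty vector and B5 alone and 42 without the intensity trend. Of 146 named genes at least 2-fold apart, 4 fell short under quantile normalisation, 7 under median scaling, 11 with the higher pseudocount and 13 when the median over a gene's probe sets was taken. The 1 A20 array leaves its own spread unknown, and folds with a side under 21.8 depend on the pseudocount: the dimmer side was under it for 97 of the 475 higher and 234 of the 517 lower probe sets.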

Other observations

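By chromosome, over 4635 genes above the dim level on all 5 arrays, the median difference of A20 from AxJ was -0.04 on the log2 scale, and 5.03% of genes were at least 2-fold higher and 4.83% lower. Chromosome 11 held 32 higher and 7 lower genes of 422, and its median was above 0 against each of the 4 AxJ arrays (0.05 to 0.15). Chromosome 9 held 8 higher and 21 lower of 260, and its median was below 0 against each array (-0.31 to -0.24). On chromosome X, 3 genes were higher and 14 lower of 124. Chromosome 16 had a median of 0.18 over 133 genes. The median was 0.21 over 110 genes on chromosome 18, though -0.02 against empty vector, and -0.19 over 177 genes on chromosome 19. These are values without a test.

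In 13 probe sets with at least 500 on all 4 AxJ arrays and A20 at least 16-fold below them, the A20 value was 0.203% to 4.96% of the AxJ mean, with a median of 0.881%.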
